A study of Mus musculus with 4 samples.

Results

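The enzymes of superoxide and peroxide defence were followed in hearts of mice that lack PIMT in cardiomyocytes. The group held 10 of the 23337 genes listed: the superoxide dismutases Sod1, Sod2 and Sod3, the catalase gene Cat, the peroxiredoxins Prdx1, Prdx2, Prdx3 and Prdx5, and Nqo1 and Gclc, which are targets of the transcription factor NRF2. They were taken by name, for their known roles, but with earlier results of these data known. All 10 passed the filters on low reads. PIMT is a coactivator-binding RNA cap methyltransferase encoded by Tgs1. Cardiomyocyte-specific null mice (csPIMT-/-) carried Cre recombinase under the α-myosin heavy chain promoter together with floxed PIMT alleles, and recombination from late embryonic life removed part of the coding exons. Their controls carried the same floxed alleles (PIMT fl/fl), and the labels record them as WT. No Cre transgene is named for these controls, so Cre expression and loss of PIMT cannot be told apart in the ratios. Heart RNA of each genotype was sequenced at 2 and 6 months of age, as 1 library per group from 5 pooled C57BL6/J mice of both sexes, without treatment.

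Superoxide leaks from the respiratory chain and is made on purpose by NADPH oxidases. Superoxide dismutases turn it into hydrogen peroxide: SOD1 in the cytosol, SOD2 in the mitochondrial matrix and SOD3 outside the cell. Peroxide is then removed by catalase in peroxisomes and by peroxiredoxins, which draw their electrons from thioredoxin. NRF2 is held for degradation by KEAP1 and CUL3 and, when released, binds antioxidant response elements and raises the transcription of genes such as Nqo1 and Gclc. The heart, whose cardiomyocytes are packed with mitochondria, depends strongly on the mitochondrial enzymes SOD2, PRDX3 and PRDX5.

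The 4 libraries held between 29823073 and 40705783 reads on genes, the fewest in the csPIMT-/- library of 2 months. Values are normalised counts, that is reads divided by 1 size factor per library. Because a group was 1 library, ratios between groups carry a 95% Clopper-Pearson interval that covers counting error only, and they have no replicate check. A limma fit of genotype and age over the 4 libraries gave the p-values of the reported calls, adjusted over 14935 genes, and these measure the departure of 4 libraries from additive effects. Tgs1, the targeted gene, had 580 and 816 normalised counts in the 2- and 6-month controls, against 160.3 and 162 in csPIMT-/- hearts (limma log2 difference -2.09, SE 0.334, adjusted p = 0.0115). With the GC trend described next subtracted, its limma log2 difference was -0.87 with the longest transcript (adjusted p = 0.167) and -0.73 with the RefSeq transcript (adjusted p = 0.227), and it was no longer called. In these bulk hearts fewer cells of a type and less RNA per cell cannot be told apart. The summed normalised counts of 8 cardiomyocyte markers were 1483535 and 1408381 in the 2- and 6-month controls against 1479533 and 1140569 in csPIMT-/- hearts. Of the 8, 4 were higher in csPIMT-/- than in the control at 2 months and 3 at 6 months. Limma called 1 of the 8 lower, beside 18.6% of all genes tested. It was Pln, which encodes the calcium pump inhibitor phospholamban (log2 difference -1.67, adjusted p = 0.0172, and -0.083 with the GC trend subtracted). Ratios of all genes moved with the GC content of their transcripts (Spearman rho 0.581 over 13748 genes at 2 months and 0.607 over 13787 at 6 months), so the ratios of the 10 genes are also given with that trend subtracted.

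At 2 months 2 of the 10 genes, Sod3 and Nqo1, were more than 2-fold higher in the csPIMT-/- library than in the control, where 16.4% of 15152 genes were. At 6 months 1 of them, Sod3, was past 2-fold, where 16.0% of 15218 genes were. None was more than 2-fold lower at either age, against 23.0% of all genes at 2 months and 25.7% at 6 months. Past 1.5-fold, 5 genes were higher at 2 months (29.6% of all genes) and 5 at 6 months (29.3%), namely Sod1, Sod3, Prdx2, Prdx5 and Nqo1 at both ages. No gene of the 10 was past 1.5-fold lower at 2 months (33.5% of all genes), and 2 were at 6 months (35.0%), Sod2 and Prdx3. The median ratio of the 10 genes was 1.44 at 2 months and 1.40 at 6 months, beside 0.980 and 0.977 over all genes. By limma 4 of the 10, Sod1, Sod3, Prdx5 and Nqo1, were called higher over both ages at an adjusted p below 0.05 and 0 were called lower, beside 12.3% of all genes called higher and 18.6% called lower. These limma calls did not survive subtraction of the GC trend, after which no gene of the whole table was called (3496 genes had an unadjusted p below 0.05), nor a fit without a mean trend of the variance (0 genes called, 5944 below an unadjusted p of 0.05). The edgeR quasi-likelihood test called 2 of the 10 (Sod3 and Nqo1), and the DESeq2 Wald test called 5 (Sod1, Sod3, Prdx2, Prdx5 and Nqo1).

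**Figure D1:**
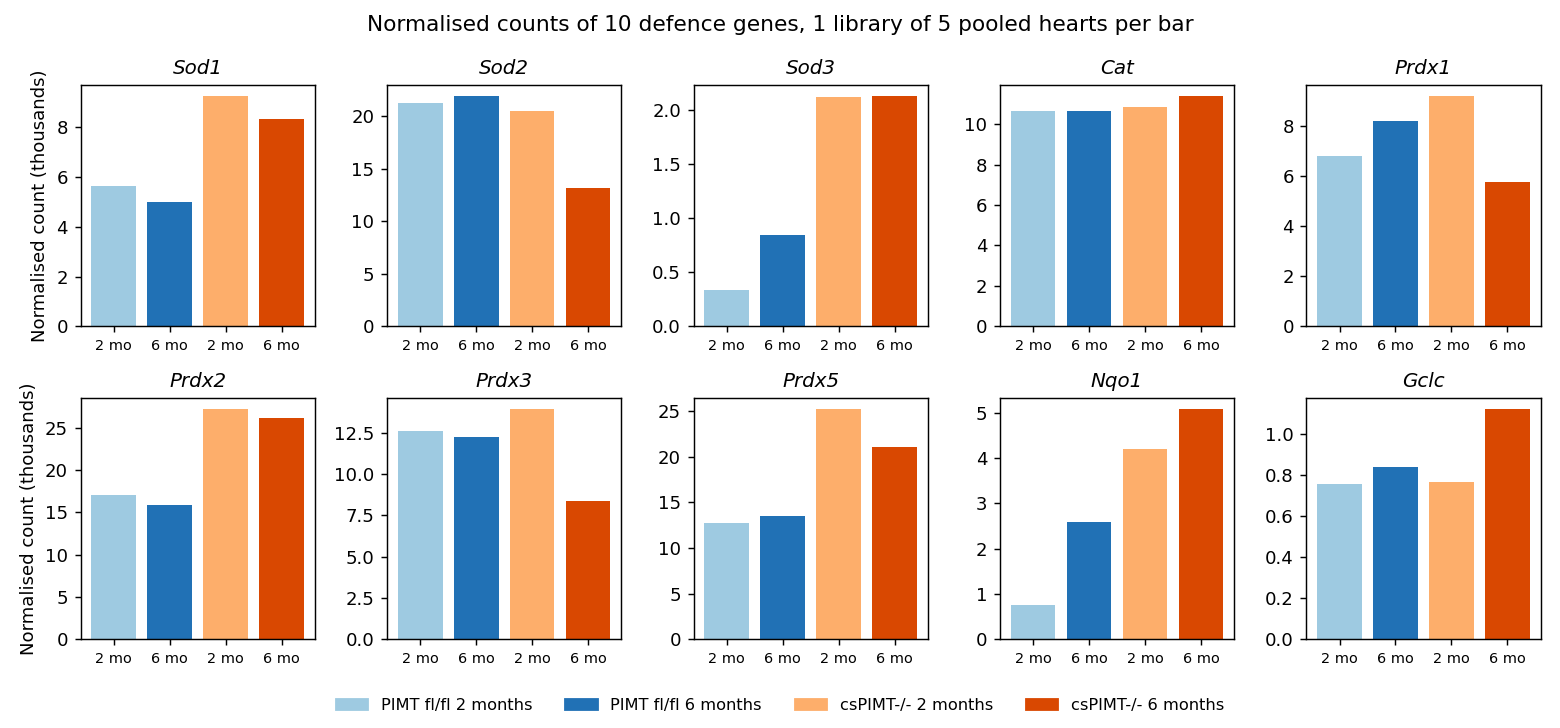
Normalised counts (linear axes from 0, a separate axis per gene) of the 10 genes in the 4 libraries, with each bar standing for 1 library of 5 pooled hearts. Sod1, Sod3, Prdx2, Prdx5 and Nqo1 have both csPIMT-/- bars clearly above both control bars, Cat is nearly flat, and Sod2, Prdx1 and Prdx3 have their lowest bar in the csPIMT-/- library of 6 months.

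Both csPIMT-/- libraries lay above both controls for 6 of the 10 genes (Sod1, Sod3, Cat, Prdx2, Prdx5 and Nqo1), as they did for 35.1% of all genes tested. They lay below both controls for 1 gene, Sod2, as for 35.8% of all genes. The groups overlapped for Prdx1, Prdx3 and Gclc. These positions are on the scale of the deposited values, and the place of Cat depends on the size factors, since its 2-month ratio with the factors of that pair of libraries was 0.998.

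Among the superoxide dismutases, as measured, Sod1 and Sod3 were higher in csPIMT-/- at both ages and Sod2 was lower. Sod1 (ENSMUSG00000022982.10, GRCm38 chromosome 16, 90220754 to 90226329, + strand), the cytosolic copper-zinc enzyme, had 5633 and 5013 normalised counts in the 2- and 6-month controls, against 9248 and 8349 with the deletion. Both csPIMT-/- values were above both controls. The csPIMT-/- over control ratio came to 1.61 at 2 months (95% interval 1.56 to 1.66) and to 1.62 at 6 months (1.57 to 1.68), which placed Sod1 above 74.0% and 74.8% of all genes. The ratio of the 6-month to the 2-month ratio was 1.01 (0.961 to 1.06). Limma gave a log2 difference of 0.72 (SE 0.207, adjusted p = 0.0454), with adjusted p from 0.0327 to 0.334 over 16 alternatives, and the call was lost when any single library was left out together with the age term (log2 difference 0.62 to 0.82). It was kept when the age term alone was dropped (adjusted p = 0.0391). The size of the Sod1 ratio hung on which transcript gave its GC content. With the longest GENCODE transcript (3970 bases, 47.6% GC) the GC-subtracted ratios were 2.05 and 2.09, and with the RefSeq transcript (641 bases, 53.2% GC) they were 1.27 and 1.23.

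Sod2 (ENSMUSG00000006818.5, chromosome 17, 13006846 to 13040063, + strand), the manganese enzyme of mitochondria, had 21269.9 and 21887 normalised counts in the controls and 20452 and 13184 in the csPIMT-/- libraries. Only the csPIMT-/- library of 6 months stood apart. At 2 months the Sod2 ratio was 0.943 (0.924 to 0.961) and the 6-month ratio 0.587 (0.574 to 0.5996), and within csPIMT-/- hearts the 6-month library stood at 0.627 of the 2-month library (0.612 to 0.642). The limma log2 difference of -0.40 (SE 0.271, adjusted p = 0.293) did not pass the threshold. Sod2 had the lowest GC content of the 10 genes (42.2%), and with the GC trend subtracted its direction turned: the ratios became 2.03 at 2 months and 1.46 at 6 months.

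Sod3 (ENSMUSG00000072941.5, chromosome 5, 52363791 to 52371418, + strand), the secreted enzyme bound to the extracellular matrix, had 333 and 839.9 normalised counts in the controls and 2124 and 2126 in the csPIMT-/- libraries. The csPIMT-/- libraries were nearly equal, both above the controls, and the 6-month control was above the 2-month control. The 2-month ratio was therefore 6.25 (5.59 to 7.00) and the 6-month ratio 2.47 (2.28 to 2.67). Between the controls the ratio of 6 to 2 months was 2.41 (2.14 to 2.72), where 8.15% of 15132 genes were past 2-fold higher. Sod3 and Nqo1 were the 2 of the 10 genes past 2-fold in that comparison, and none was past 2-fold lower (5.21% of all genes). Against the control of the other age the csPIMT-/- ratios were 2.45 at 2 months and 6.26 at 6 months. Limma gave a log2 difference of 2.00 (SE 0.368, adjusted p = 0.0155, 4.85e-06 to 0.141 over the alternatives), above 97.3% of all genes. The call was kept without the age term (adjusted p = 0.0229) and was lost when, beside that term, the 2-month control (log2 difference 1.33), the 2-month csPIMT-/- library (1.97) or the 6-month csPIMT-/- library (2.02) was left out. Subtraction of the GC trend left ratios of 4.99 and 1.87.

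**Figure D2:**
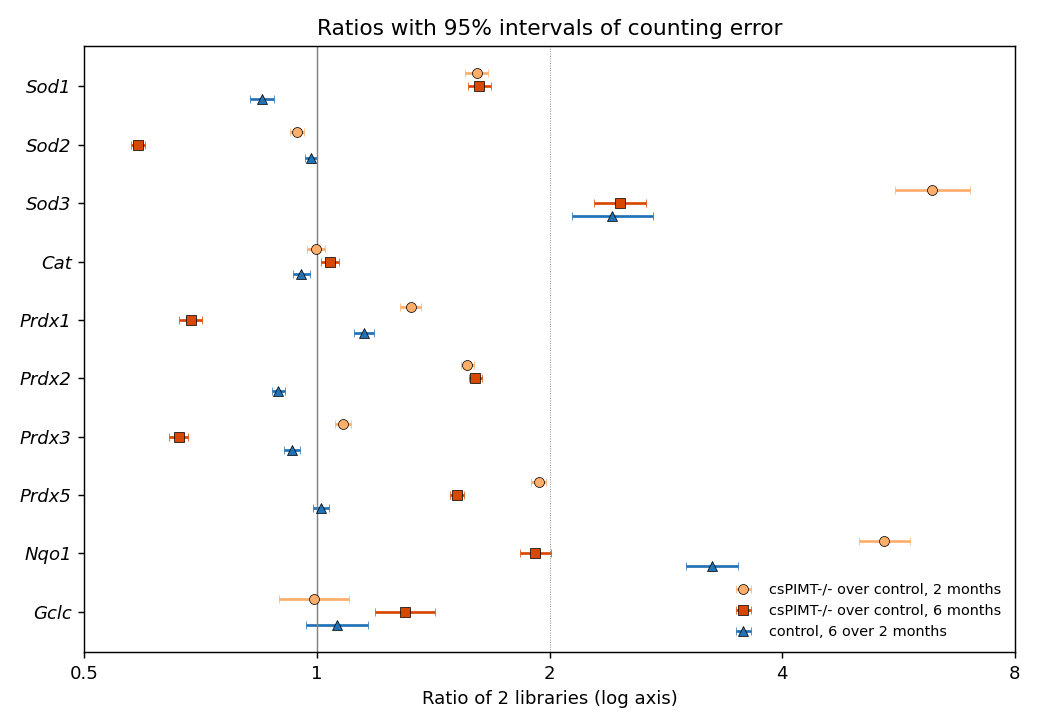
Ratio of 2 libraries on a log axis for each of the 10 genes, with 95% intervals of counting error: csPIMT-/- over control at 2 months (circles) and 6 months (squares), and the 6-month over the 2-month control (triangles). Sod3 and Nqo1 stand farthest to the right, at 6.25 and 5.42 at 2 months, and are also the genes with a control ratio past 2.

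Cat (ENSMUSG00000027187.10, chromosome 2, 103453849 to 103485160, − strand), which breaks down peroxide in peroxisomes, had 10659.6 and 10649.6 normalised counts in the controls and 10853 and 11370.0 in the csPIMT-/- libraries. The 4 values differed little. At 2 months the ratio was 0.998 (0.971 to 1.03), and at 6 months 1.04 (1.01 to 1.07). The limma log2 difference was 0.05 (SE 0.213, adjusted p = 0.862). After GC subtraction the Cat ratios were 1.15 and 1.17.

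As measured, the 4 peroxiredoxins fell into pairs, which did not hold with the GC trend subtracted. Prdx2 (ENSMUSG00000005161.15, chromosome 8, 84969587 to 84974834, + strand), a cytosolic peroxiredoxin that is also abundant in red cells, had 17026 and 15886 normalised counts in the controls and 27198 and 26151 in the csPIMT-/- libraries. Its 2-month ratio was 1.57 (1.54 to 1.60) and its 6-month ratio 1.60 (1.57 to 1.63), with 1.02 between the ages (0.997 to 1.05). Both csPIMT-/- libraries were above both controls, but the limma log2 difference of 0.69 (SE 0.231, adjusted p = 0.0670) missed the threshold, with adjusted p between 0.0430 and 0.243 over the alternatives. The GC-subtracted ratios of 1.54 and 1.51 differed little from these.

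Prdx5 (ENSMUSG00000024953.17, chromosome 19, 6906697 to 6910106, − strand), found in mitochondria, peroxisomes and the cytosol, had 12756 and 13516 normalised counts in the controls and 25189.7 and 21036 in the csPIMT-/- libraries. The csPIMT-/- libraries were both above the controls, with the higher value at 2 months. The 2-month ratio was 1.94 (1.895 to 1.98) and the 6-month ratio 1.52 (1.48 to 1.55), a ratio of ratios of 0.783 (0.760 to 0.807). Limma gave a log2 difference of 0.80 (SE 0.239, adjusted p = 0.0496), which lay close to the threshold and passed it in 7 of 16 alternatives. It was kept without the age term (adjusted p = 0.0371) and was lost when, beside that term, the 2-month control (log2 difference 0.76), the 6-month control (0.84) or the 2-month csPIMT-/- library (0.65) was left out. Prdx5 had the highest GC content of the 10 genes (56.4%). After GC subtraction it stood at 1.26 in the younger hearts and lost its direction in the older ones, at 0.984.

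Prdx1 (ENSMUSG00000028691.12, chromosome 4, 116685544 to 116700822, + strand), a cytosolic peroxiredoxin and known NRF2 target, had 6793 and 8177 normalised counts in the controls and 9159 and 5760.4 in the csPIMT-/- libraries. The csPIMT-/- libraries held both the highest and the lowest value. For Prdx1 the 2-month ratio was 1.32 (1.28 to 1.36) and the 6-month ratio 0.686 (0.664 to 0.710). Over both ages the limma log2 difference was -0.04 (SE 0.289, adjusted p = 0.919). With 42.3% GC, Prdx1 had GC-subtracted ratios of 2.81 at 2 months and 1.68 at 6 months, above 1 at both ages.

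Prdx3 (ENSMUSG00000024997.7, chromosome 19, 60864051 to 60874556, − strand), the peroxiredoxin confined to mitochondria, had 12614 and 12261 normalised counts in the controls and 13906 and 8336 in the csPIMT-/- libraries. As for Sod2 and Prdx1, the csPIMT-/- library of 6 months was the lowest of the 4. That library also had the lowest sum of cardiomyocyte markers, although 3 of the 8 markers were higher there than in the 6-month control. The part of cardiomyocytes in the values of Sod2, Prdx1 and Prdx3 was not tested. The Prdx3 ratios were 1.08 (1.05 to 1.11) in the younger and 0.662 (0.644 to 0.681) in the older hearts, and the GC-subtracted ratios were 1.69 and 1.13. The limma log2 difference of -0.21 (SE 0.263, adjusted p = 0.557) did not pass the threshold and turned to 0.48 with the GC trend subtracted.

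Nqo1 (ENSMUSG00000003849.8, chromosome 8, 107388225 to 107403206, − strand), a quinone reductase and a standard NRF2 target, had 759.7 and 2579.5 normalised counts in the controls and 4203 and 5079 in the csPIMT-/- libraries. All 4 libraries differed, and both csPIMT-/- values were above both controls. The 2-month ratio was 5.42 (5.03 to 5.85) and the 6-month ratio 1.92 (1.83 to 2.01), with 3.24 between the controls (3.01 to 3.50). Against the control of the other age the ratios were 1.58 at 2 months and 6.55 at 6 months. Limma gave a log2 difference of 1.72 (SE 0.378, adjusted p = 0.0231, 7.89e-05 to 0.181 over the alternatives), and the call was already lost when the age term alone was dropped (adjusted p = 0.0561). With a library left out as well, the log2 difference was 0.84 without the 2-month control, 2.59 without the 6-month control, where it was called, 1.83 without the 2-month csPIMT-/- library and 1.60 without the 6-month one. The GC-subtracted ratios were higher, at 7.48 and 2.74.

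Gclc (ENSMUSG00000032350.9, chromosome 9, 77754535 to 77794485, + strand), the catalytic subunit of the enzyme that limits glutathione synthesis, had 755 and 838 normalised counts in the controls and 763 and 1118 in the csPIMT-/- libraries. The csPIMT-/- library of 6 months was the highest and the other 3 lay close together. The 2-month ratio was 0.991 (0.893 to 1.10) and the 6-month ratio 1.30 (1.19 to 1.42). The limma log2 difference was 0.21 (SE 0.258, adjusted p = 0.557). After GC subtraction its ratios were 1.26 and 1.66.

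**Figure D3:**
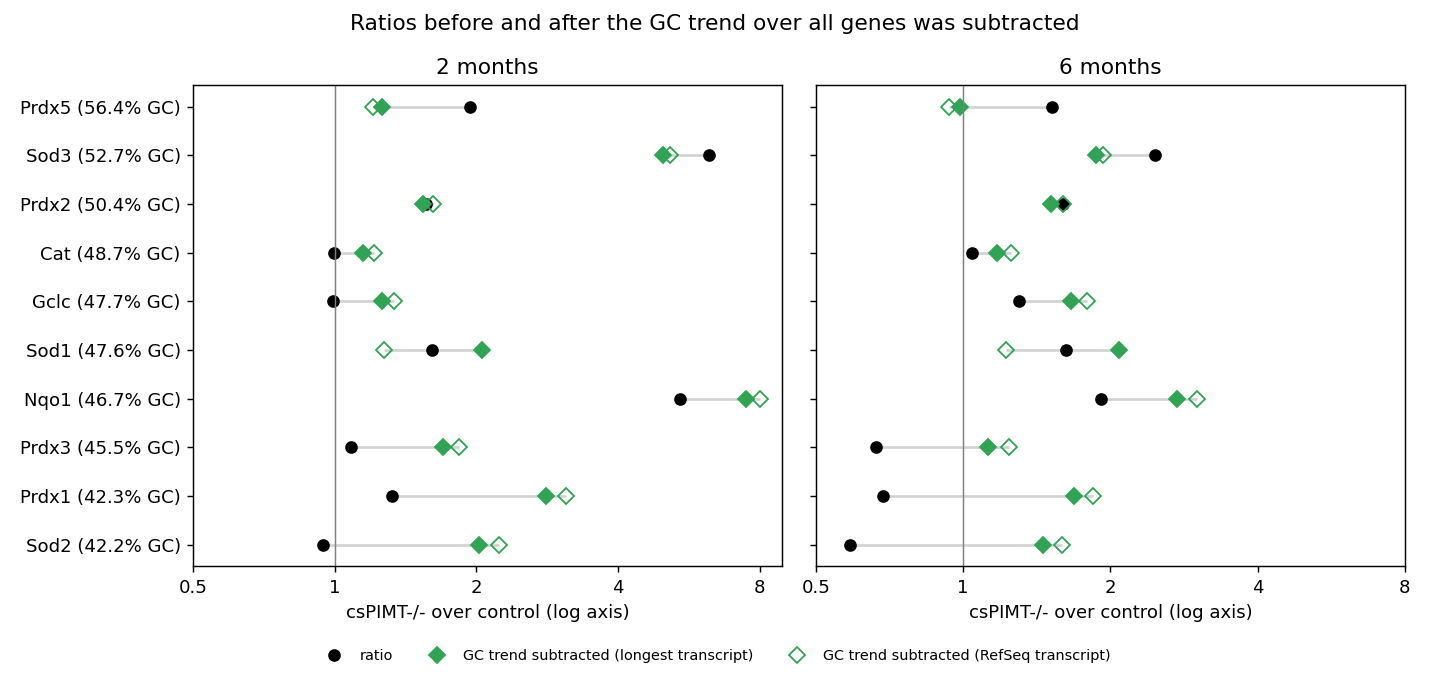
Ratio of csPIMT-/- over control on a log axis at 2 months (left) and 6 months (right), for the 10 genes ordered by the GC content of their longest transcript: as measured (black circles), and with the GC trend of all genes subtracted using the longest transcript (filled diamonds) or the RefSeq transcript (open diamonds). Genes of low GC content such as Sod2, Prdx1 and Prdx3 move to the right on subtraction, and Prdx5 and Sod3 move to the left.

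With the GC trend subtracted, all 10 ratios were above 1 at 2 months, from 1.15 for Cat to 7.48 for Nqo1, where 51.0% of all genes were. At 6 months 9 were above 1, where 50.7% of all genes were, and Prdx5 was below it. With the GC content of RefSeq transcripts the counts were again 10 (51.5% of all genes) and 9 (50.7%). As measured, 7 of the 10 were above 1 at each age, where 48.9% and 49.1% of all genes were. The median GC content of the 10 genes was 47.6%, and that of all genes tested was 49.9%. The median limma log2 difference of the 10 was 0.45 as measured and 0.71 with the GC trend subtracted, beside 0.03 and 0.02 over all genes tested.

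The ages differed most for the ratios of Sod3 and Nqo1, whose 6-month ratios were 0.395 (0.345 to 0.451) and 0.354 (0.324 to 0.386) of the 2-month ratios. For both, the controls differed between the ages by more than the csPIMT-/- libraries did: within csPIMT-/- the ratio of 6 to 2 months was 0.973 for Sod3 (0.912 to 1.04) and 1.17 for Nqo1 (1.12 to 1.23). Between the csPIMT-/- libraries none of the 10 was past 2-fold higher or lower at 6 months, beside 9.17% and 8.73% of 15057 genes, and 3 were above 1, beside 51.2%. For Sod2, Prdx1 and Prdx3 it was the csPIMT-/- libraries that differed between the ages, at 0.627, 0.612 and 0.583, where the controls stood at 0.983, 1.15 and 0.929. No interaction could be tested with 1 library per group.

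Other cell types moved with some of these values. The summed normalised counts of 8 macrophage markers were 11405 and 24893 in the controls and 33548 and 46847 in the csPIMT-/- libraries. This order of libraries was shared with Nqo1 and Sod3. Limma called 5 of the 8 higher (among them C1qa and Cd68) and 1 lower, beside 12.3% and 18.6% of all genes tested. The 1 called lower was Ptprc, whose log2 difference of -1.04 turned to 0.46 with the GC trend subtracted. The 4 atrial markers summed to 40736 and 114957 in the controls and 325567 and 348345 in csPIMT-/-, of which Nppa, which failing ventricles also express, made up the larger part. The other 3 were highest in the 2-month csPIMT-/- library and lower in csPIMT-/- than in the control at 6 months: Myl7 had 1045 and 17299 in the controls against 42908 and 8084, Myl4 1379 and 23002 against 68851 and 18281, and Sln 129.8 and 3996 against 12629 and 1684. White fat markers summed to 10.4 in the 2-month control, 2880.3 in the 6-month control, 12521 in the 2-month csPIMT-/- library and 2136 in the 6-month one. Lung and airway markers summed to at most 18.7 except in the 2-month csPIMT-/- library, at 1169. The brown fat marker Ucp1 had 1766 normalised counts in the 2-month csPIMT-/- library and at most 93.2 in the others, and all 4 brown fat markers summed to 14229.8 and 13550.1 in the controls against 26553 and 17188. The part of macrophages, atrial tissue, white fat, brown fat and airway tissue in the Sod3 and Nqo1 values was not tested.

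**Figure D4:**
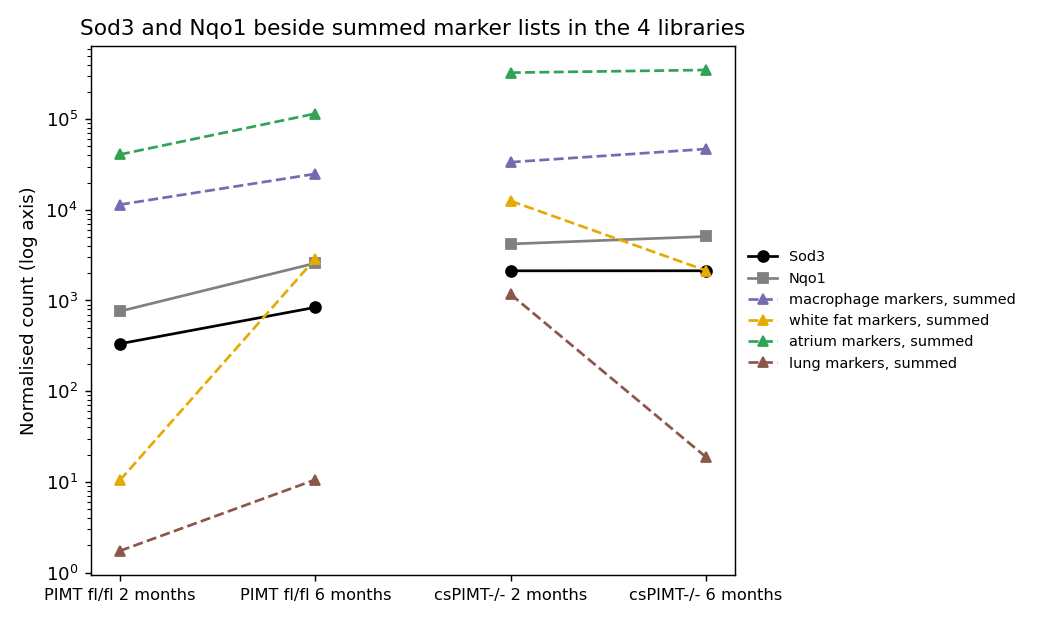
Normalised counts on a log axis in the 4 libraries for Sod3 and Nqo1 (solid lines) and for summed marker lists (dashed lines), with lines joining only the 2 ages of a genotype. Sod3, Nqo1 and the macrophage sum are lowest in the 2-month control, next in the 6-month control and higher in both csPIMT-/- libraries, and the white fat and lung sums peak in the 2-month csPIMT-/- library.

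For Prdx2, the red cell genes Alas2 and Slc4a1, singled out after their values were seen, are set beside it. Alas2, the heme synthesis enzyme of red cell precursors, had 3832 and 2855 normalised counts in the controls and 2313 and 12283 in the csPIMT-/- libraries. Slc4a1, the anion exchanger of the red cell membrane, had 567 and 244 against 82.6 and 1014. The part of red cells in the Prdx2 values was not tested. The globin genes Hba-a1, Hba-a2, Hbb-b1 and Hbb-b2 were listed at 0 in all 4 libraries. Of the remaining lists, 8 fibroblast markers summed to 286461 and 149498 in the controls and 196042 and 207079 in csPIMT-/-, 5 smooth muscle markers to 54664 and 40639 against 67321 and 30754, and 6 endothelial markers to 67872 and 50932 against 49309 and 55043. Limma called 3 of these genes lower, beside 18.6% of all genes tested. Both csPIMT-/- libraries lay below both controls, as for 35.8% of all genes, in each of the 3 called. They were the endothelial receptors Kdr, with 15793 and 11015 in the controls against 6878 and 6164 (log2 difference -1.02, adjusted p = 0.0217), and Tek, with 6623 and 5886 against 2758 and 3333 (log2 difference -1.05, adjusted p = 0.0207), and the matrix proteoglycan Lum, with 9227 and 6814 against 4508 and 3934 (log2 difference -0.92, adjusted p = 0.0250, and 0.31 with the GC trend subtracted).

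The order of levels per length depended on the transcript length used. On the length of the RefSeq transcript, Prdx5 and Prdx2 led in all 4 libraries, at 293 and 306 RPKM (reads per kb of transcript, scaled to the reads on genes of the library) in the 2-month control and 443 and 431 in the 6-month csPIMT-/- library, so the pair changed order between libraries. Sod1 and Prdx3 came next, at 255 and 247 in the 2-month control, and parted in the 6-month csPIMT-/- library, at 346 and 149.9. Cat followed in every library, between 113 and 118. Sod2 lay between 59.8 and 105 and Prdx1 between 66.7 and 109. Nqo1 ranged from 14.2 in the 2-month control to 86.9 in the 6-month csPIMT-/- library, where it stood above Prdx1 and Sod2. Gclc, at 6.06 to 8.68, and Sod3, at 2.58 to 15.5, were the lowest, and they changed places between genotypes. With the longest GENCODE transcript the Sod1 level in the 2-month control would be 41.1 in place of 255, and Prdx3 would stand second to Prdx2 in both controls. With the length of all exons joined, Prdx3 led in both controls, at 247 and 232 against 173 and 177 for Prdx5.

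Promoter sequences were read for the genes that carry the antioxidant response element core, TGACNNNGC, and for Nqo1, the NRF2 target with the highest ratio among those with a sequence. RefSeq promoters (GRCm38.p6, 250 bases before the start to 50 after) matched 8 of the 10 genes, all but Sod3 and Gclc. The core was found on either strand in 2 of the 8, Prdx1 and Sod1, and in 12.4% of 32851 promoters. The 250 bases before the start follow, 5′ to 3′ on the strand of the gene, with the match to the core in capitals (in both genes it lies on the opposite strand, so the capitals show its complement). The Prdx1 window is chr4:116685349-116685598 on the + strand, the Sod1 window chr16:90220512-90220761 on the + strand and the Nqo1 window chr8:107403206-107403455 on the − strand.
Prdx1: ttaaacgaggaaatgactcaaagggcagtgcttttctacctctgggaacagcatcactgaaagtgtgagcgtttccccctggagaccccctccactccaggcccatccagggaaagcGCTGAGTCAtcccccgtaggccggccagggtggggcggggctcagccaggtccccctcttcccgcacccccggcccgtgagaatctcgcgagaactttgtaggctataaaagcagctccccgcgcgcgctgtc
Sod1: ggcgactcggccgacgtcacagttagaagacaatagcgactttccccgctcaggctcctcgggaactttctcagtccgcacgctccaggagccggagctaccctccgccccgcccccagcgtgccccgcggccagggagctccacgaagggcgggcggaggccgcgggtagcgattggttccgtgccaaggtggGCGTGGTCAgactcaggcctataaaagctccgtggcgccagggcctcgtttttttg
Nqo1: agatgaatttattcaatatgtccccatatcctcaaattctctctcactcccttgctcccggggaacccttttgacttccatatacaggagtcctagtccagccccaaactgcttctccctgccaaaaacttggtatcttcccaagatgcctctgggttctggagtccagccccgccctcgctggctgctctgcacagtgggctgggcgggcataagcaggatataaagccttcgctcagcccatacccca
In Prdx1 the match reads TGACTCAGC, with its first base in the window at -133 from the start, and in Sod1 it reads TGACCACGC, at -56. The AP-1 motif TGANTCA occurred in Prdx1 alone among the 8, at -237 and, within the antioxidant response element match, at -131, and in 7.81% of all promoters. Nqo1 had neither motif in this window. Elements farther from the start were not searched, so a gene without a match here can still carry one. The ratios at 2 and 6 months were 1.61 and 1.62 for Sod1, 1.32 and 0.686 for Prdx1, and 5.42 and 1.92 for Nqo1. The part of the motifs in these ratios was not tested.

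The enzymes around these 10 genes were counted in 7 further lists holding 81 tested genes, of which limma called 26 higher and 4 lower. That is 32.1% higher and 4.94% lower, beside 12.3% and 18.6% of all genes, and the median log2 difference was 0.67 beside 0.03. With the GC trend subtracted the median of the 81 was 0.62 and 64 of them were above 0, but none was called. The median GC content of the 81 genes was 49.96%. These lists too were chosen with earlier results of these data known.

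Of 5 further peroxiredoxins and partners, 2 were called higher and 0 lower, and all 5 were above 0 also with the GC trend subtracted. Srxn1 encodes sulfiredoxin, which restores overoxidised peroxiredoxins. It had 986 and 1189.9 normalised counts in the controls against 1831 and 2512 in csPIMT-/- (log2 difference 0.98, SE 0.224, adjusted p = 0.0253, and 0.55 with the GC trend subtracted). Park7 encodes DJ-1, a peroxide-sensing protein, and had 4619 and 4411 against 10467 and 11814 (log2 difference 1.29, SE 0.211, adjusted p = 0.0121).

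Of 12 thioredoxin and glutaredoxin genes, 2 were called higher and 1 lower, beside 12.3% and 18.6% of all genes tested. The median log2 difference of the 12 was -0.13 (0.13 with the GC trend subtracted). Txnip, an inhibitor of thioredoxin, had 22923 and 24417 normalised counts in the controls and 38495 and 72436 in csPIMT-/- (log2 difference 1.15). Nxn, nucleoredoxin, had a log2 difference of 1.11 (0.46 with the GC trend subtracted), and Glrx2, the mitochondrial glutaredoxin, had 711 and 784 against 342 and 253 (log2 difference -1.35, and -0.36 with the GC trend subtracted).

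Of 19 glutathione synthesis and transferase genes, 8 were called higher and 0 lower, and 18 were above 0 both as measured and with the GC trend subtracted. The transferase Gstm2 had 882 and 2809.9 normalised counts in the controls and 7083 and 7088 in csPIMT-/- (log2 difference 2.16, SE 0.408, adjusted p = 0.0163). Its 6-month control was above its 2-month control, as for Sod3 and Nqo1. Gstm1 had 1239.97 and 2262 against 5092 and 5268 (log2 difference 1.62). Reads of these close paralogs can be split or dropped in counting, so their values are uncertain.

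Of 11 genes that supply NADPH, 3 were called higher and 1 lower. G6pdx and Pgd, the dehydrogenases of the pentose phosphate pathway, had log2 differences of 1.07 and 1.21 (0.71 and 1.43 with the GC trend subtracted), with 402 and 641 normalised counts of G6pdx in the controls against 939 and 1221 in csPIMT-/-. Idh1, the cytosolic isocitrate dehydrogenase, had 2891 and 3608 against 1742 and 1294 (log2 difference -1.11, and -0.16 with the GC trend subtracted).

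Of 11 regulators of NRF2, 2 were called lower and 1 higher, near the shares over all genes (18.6% lower and 12.3% higher). Their median log2 difference was 0.18 and turned to -0.12 with the GC trend subtracted. Nfe2l2, which encodes NRF2 itself, had 4056 and 2968 normalised counts in the controls and 2095 and 1926 in csPIMT-/- (log2 difference -0.79, SE 0.217, adjusted p = 0.0397, and -0.32 with the GC trend subtracted). Cul3, the ubiquitin ligase scaffold that marks NRF2 for degradation, had 4509.9 and 6450.1 against 909 and 1333 (log2 difference -2.30, SE 0.211, adjusted p = 0.00864), and -0.71 with the GC trend subtracted, its GC content being 38.5%. Sqstm1, the autophagy receptor p62 that binds KEAP1, had 10469 and 15015 against 32299 and 47252 (log2 difference 1.63, SE 0.233, adjusted p = 0.00962). Of 14 other NRF2 targets, 7 were called higher and 0 lower. Ephx1, an epoxide hydrolase, had 3457 and 5069 against 12385 and 14966 (log2 difference 1.69), and Cbr3, a carbonyl reductase, 129 and 152 against 499 and 563 (log2 difference 1.91, and 1.29 with the GC trend subtracted). Srxn1 stood on this list too.

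Of 13 genes whose products make superoxide or peroxide, 4 were called higher and 0 lower. Xdh, xanthine dehydrogenase, had 1160.4 and 3472 normalised counts in the controls and 6744 and 13895 in csPIMT-/- (log2 difference 2.26, SE 0.237, adjusted p = 0.00864). Nox4, the peroxide-making NADPH oxidase of cardiomyocytes and fibroblasts, had 90.9 and 197 against 295 and 749 (log2 difference 1.80, SE 0.345, adjusted p = 0.0169, and 3.45 with the GC trend subtracted). The other genes called, Cyba and Ncf1, which encode subunits of the phagocyte oxidase, were named after their values were seen. The macrophage sums above moved with these genes, and their part was not tested.

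**Figure D5:**
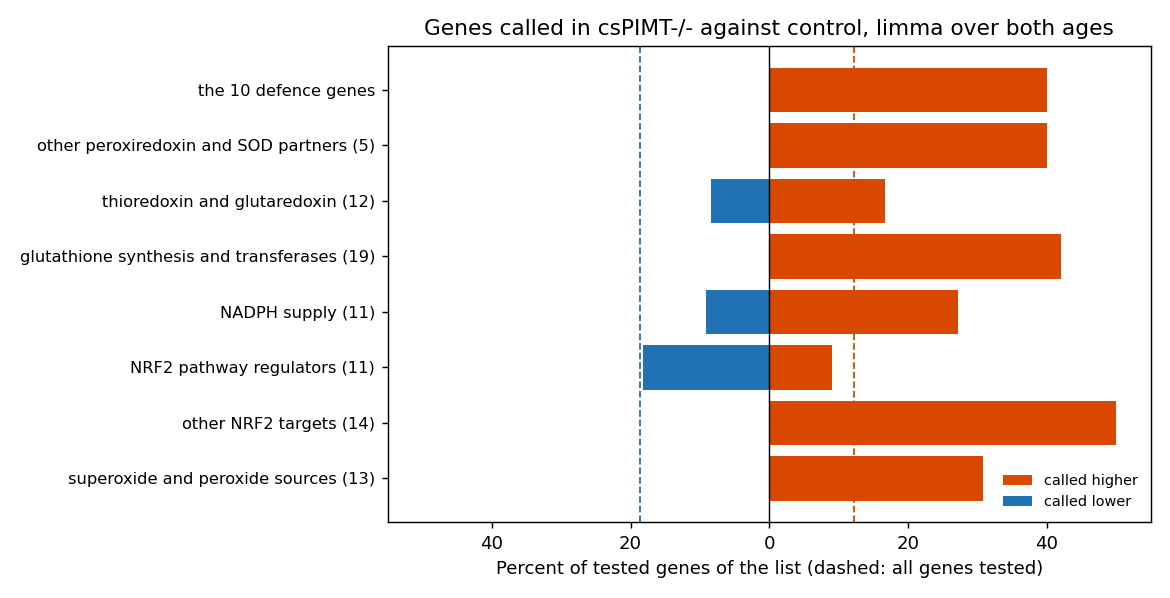
Percent of the tested genes of each list that limma called higher (orange, right) or lower (blue, left) in csPIMT-/-, with the number tested in brackets and dashed lines for all 14935 genes (12.3% higher and 18.6% lower). All lists but that of the NRF2 regulators exceed the right dashed line, and no list exceeds the left one.

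The genes nearest in pattern to the lowest and the highest of the 10 by limma were found by the root mean square distance between log2 values of the 4 libraries, each centred on its own mean, over 12075 genes with a mean of at least 100 reads. Nearest to Sod2 were Wdr12 at 0.014, Rbbp5 at 0.015 and Dnajc15 at 0.019. Nearest to Sod3 were Nr1h3 at 0.051, with 350.4, 923, 2114 and 2208 normalised counts in the 2- and 6-month controls and the 2- and 6-month csPIMT-/- libraries, then Ces2g at 0.126 and Capg at 0.131. With 4 libraries such likeness is a description of these pools.

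Some reads of these genes could not be assigned with certainty. Sod1 overlaps Scaf4, Prdx2 overlaps Junb and Rnaseh2a, and Prdx5 overlaps Trmt112, each on the opposite strand. The libraries kept strand, but the strand setting of the counting was not given in the sources used here. Prdx2 also has a processed pseudogene copy, Prdx2-rs3.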

How the data were processed

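RNA of 5 pooled hearts per group was enriched for polyadenylated mRNA and sequenced as single-end 50-base directional libraries. Trimmed and filtered reads were aligned by the authors to mm10 with STAR, htseq-count gave reads per gene on UCSC gene models, and DESeq2 followed. HTSeq 0.6.1p1 comes from the submitters' processing notes, and other versions are not given in the sources used here. The deposited values are normalised counts, a signal scaled by 1 size factor per library. One header, for csPIMT-/- hearts at 6 months, names read counts, yet the numbers under it are fractional and scale as in the other 3 columns, so they were used as normalised values. In all, 100% of the values in each library were whole multiples of the value of 1 read. The whole reads recovered in this way numbered 39854713, 40705783, 29823073 and 36172093 (controls of 2 and 6 months, csPIMT-/- of 2 and 6 months).

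Ratios used median-of-ratios factors of the 2 libraries compared, with at least 10 reads in 1 of them. Quotients of the normalised counts lie about 2.02% (2 months) and 2.65% (6 months) above these ratios. Intervals (95%, Clopper-Pearson) cover counting error only. limma 3.58.1 (R 4.3.3) was run on log2 values of reads scaled by TMM with a pseudocount of 1, with genotype and age and a mean trend, on genes with at least 10 scaled reads in 2 libraries and 15 in all, with Benjamini-Hochberg adjustment. Residual and prior degrees of freedom were 1 and 4.95. edgeR 4.0.16 and DESeq2 1.42.0 on the recovered reads were alternatives. GC trends were lowess curves (span 0.3) on GENCODE M21 transcripts (GRCm38), which gave 89.8% of genes a GC content. Programs were tested on simulated data.

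The 10 genes and all lists were chosen with earlier results of these data known. Genes named from a list were up to 2 of the lowest and 2 of the highest limma differences among those called with a mean of at least 100 reads. No sequencing batch or date was given in the sources used here, so nothing could be compared within batches. Alternatives covered scaling, pseudocount, filters, GC correction, other controls and each library left out. The summed level of 1 marker list is not reported here.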

Additional observations from a re-analysis of the deposited data

Results flagged for a closer look

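The ratio of csPIMT-/- over control lay on opposite sides of 1 at the 2 ages for Prdx1 and Prdx3. For Prdx1 it was 1.32 at 2 months and 0.686 at 6 months, so the 6-month ratio was 0.519 of the 2-month ratio (95% interval of counting error 0.496 to 0.544). For Prdx3 it was 1.08 and 0.662, a ratio of ratios of 0.613 (0.591 to 0.636). The difference between the ages was not tested, since each group was 1 library. With the GC trend subtracted both genes were above 1 at both ages, at 2.81 and 1.68 for Prdx1 and at 1.69 and 1.13 for Prdx3.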

How the results depend on the processing

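No paired analysis was possible because the labels carry no replicate numbers and each group was 1 library. The count of 4 of the 10 genes called higher by limma became 0 without the mean trend, 0 with the GC trend of either transcript subtracted, 2 with edgeR, and 0 to 2 with a library left out (no age term, and the lone library assumed to vary like the others). It was 0 without the 2-month control or the 2-month csPIMT-/- library, 1 without the 6-month csPIMT-/- library and 2 without the 6-month control. Over all genes, 2781 lower and 1833 higher became 0 and 0 without the mean trend and with either GC subtraction, and with a library left out 1070 lower and 173 higher (2-month control), 40 and 95 (6-month control), 1735 and 946 (2-month csPIMT-/-) or 1762 and 640.0 (6-month csPIMT-/-). edgeR called 2508 lower and 1619 higher, and DESeq2 2994 and 2201. Limma log2 differences turned from negative to positive for Sod2 (0.79 with the GC trend subtracted, 0.93 with RefSeq transcripts), Prdx3 (0.48 and 0.60, and 0.18 without the 6-month csPIMT-/- library) and Prdx1 (1.13 and 1.27, 0.082 with upper-quartile scaling, 0.089 without the 6-month control and 0.32 without the 6-month csPIMT-/- library), and that of Gclc turned to -0.041 without the 6-month csPIMT-/- library. None of these was called in the reported fit.

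Of the 10 genes, those past 2-fold higher at 2 months (2 as reported) numbered 1 against the 6-month control. They numbered 5 with the GC trend subtracted, 4 with RefSeq transcripts and 5 past 1.5-fold (29.6% of all genes). At 6 months (1 as reported) they numbered 2 against the 2-month control and 2 with the GC trend subtracted. Past 1.5-fold at 6 months, 5 were higher (29.3% of all genes) and 2 lower (35.0%). For the other-control and GC settings no share of all genes past 2-fold higher is given here, so those counts cannot be read as an excess. Over all genes, 3492 past 2-fold lower at 2 months became 1571 and 1309 with the GC trends subtracted, and 3917 at 6 months became 1800 and 1549. Genes higher at 2 months (2487) numbered 1618 with at least 100 reads and 4485 past 1.5-fold, and at 6 months (2428) 4465 past 1.5-fold. The GC settings with RefSeq transcripts were chosen after the data were seen. Why the GC subtraction moves these values was not tested. TMM in place of median-of-ratios factors changed none of the 20 csPIMT-/- over control ratios by more than their counting interval. With total reads as the scale, Prdx2 at 2 months (1.498) and Prdx5 at 6 months (1.48) were no longer past 1.5-fold. Against both controls summed, the ratios at 2 and 6 months were 3.50 and 3.56 for Sod3, and 2.43 and 2.99 for Nqo1.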
